A study of Mus musculus with 39 samples.

Results

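The genes Tbx15, Shox2, En1, Tcf21, Efemp1, Tbx5 and Nr2f1 were followed across all arrays of a mouse adipose tissue time course. They were selected on measured values: Tbx15 was high and Tcf21 low on the week 6 arrays other than the HF20 array, and the remaining 5 genes were added as further genes of depot identity. The week 6 pattern is therefore described without a test. The 7 genes are among 29411 gene names on the array and have 10 of its 40628 probes. Each gene was read from its brightest probe, and the other 3 probes (2 more for Tbx15 and 1 more for Tbx5) were used as a check.

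Fat depots arise from different regions of the mesoderm, and their precursor cells keep the expression of developmental transcription factors that marks their origin. In mice, the T-box factor Tbx15 and the homeobox factors Shox2 and En1 are known from subcutaneous fat, whereas Tcf21, a basic helix-loop-helix factor, is known from precursor cells of visceral fat. Epididymal fat is a visceral-type depot of the male mouse that is covered by a mesothelium and lies against the epididymis.

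The tissue was epididymal adipose of C57BL/6J mice, which were put on their diets after weaning and sampled from day 1 to week 18. The study's methods count the weeks from day 14, so that day 14 and week 0 are the same time. They are kept apart here as labelled. Control mice (LFC) ate a diet with 10% of its calories as fat and gave 11 arrays, at days 1, 6, 10 and 14 and weeks 0, 3, 6, 9, 12, 15 and 18. A diet rich in sucrose with 60% of its calories as fat (HFC) gave 10 arrays, with no array at day 1. In 3 further groups this rich diet carried KAL-1, an ethno-botanical formulation, at 5 µg (HF5), 20 µg (HF20) or 75 µg (HF75), and each gave 6 arrays at weeks 3 to 18. No group carried a transgene or a deleted gene by its labels. Each diet had 1 array at a time point, so different time points stood in for replicates, and the labels do not say how many mice an array held. The letter R in some array titles, at times followed by a number, is not explained. Between diets the level of each time point was fitted, so p-values there measure how far diet differences varied from one time point to another. P-values for change with time measure the spread between arrays of different age.

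The signal is given as the log2 of the scanner's processed intensity minus the 75th percentile of the same array, so that 0 is the level of a fairly bright probe. The scanner software also marks whether a spot is well above background, and a value below that mark has no usable order. Spots above this mark made up 53.7% to 79.6% on 37 arrays, which had 21 to 387 outlier spots each. The LFC week 3 array (97.1% and 16431 outlier spots) and the HFC week 12 array (94.5% and 10531) stood apart. Outlier spots were removed, which left no value for Tcf21, Shox2 and Tbx5 on the LFC week 3 array and none for Shox2 on the HFC week 12 array. Fitted differences of members that rest on them are also given without them.

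The labelled tissue was checked against markers. All 6 adipocyte genes (such as Adipoq, which encodes adiponectin) passed the background mark on all 39 arrays. Of the 6 mesothelial genes, Upk3b, Upk1b and Lrrn4, which are known surface proteins of mesothelial cells, were not well above background on the LFC, HFC, HF5 and HF75 arrays of week 6. Wt1 was well above background on 2 of these 4 arrays, and Msln and Krt19 were on all 4. On the HF20 array of week 6 all 6 were well above it. In whole tissue, fewer cells of a type and less RNA per cell cannot be told apart.

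The probes that carry the week 6 pattern were 60 bases long. For Tbx15 the file lists 3 of them, and they are shown because 1 of the 3 did not behave like the other two. The longest run of bases shared by any pair of them was 9, so they read separate stretches of the transcript. The first 30 bases of each, 5′ to 3′ as in the array design, are as follows, with the Tcf21 and Tbx5 probes for reference.
Tbx15 brightest: agaatgaagagaatggttttatctccaagg
Tbx15 second: aagtgaaactgggtgcaagctaaaattttt
Tbx15, the third: gcccagagaaactgagcgcgtctcaaagca
Tcf21: ttatggtggccggcaaaccagagaatgacc
Tbx5 brightest: aaatacctacctccgtcatgtgagatgtct
Tbx5 second: aaatttaccactgtaccaagaggaaagatg
The accession of all 10 member probes matched a RefSeq transcript of the same symbol. The array annotation placed Tbx15 and Shox2 on chromosome 3, En1 on chromosome 1, Tcf21 on chromosome 10, Tbx5 on chromosome 5 and Nr2f1 on chromosome 13, and gave no chromosome for Efemp1.

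Tbx15 was bright on 4 of the 5 week 6 arrays and dim nearly everywhere else. Its log2 signal at week 6 was -0.52 on LFC, -0.53 on HFC, -1.46 on HF5 and -0.97 on HF75, all well above background. On the HF20 array of week 6 it was -8.97 and not well above background. The LFC, HFC and HF75 values were above all 34 arrays of other time points, and the HF5 value lay just under the LFC week 3 array.

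Outside week 6 the Tbx15 signal had a lowest value of -9.27 (LFC day 1), a median of -6.83 and a highest value of -1.39 (LFC week 3, 34 arrays). With LFC week 3 and HFC week 12 left out, the highest of 32 values was -4.71 (HF5 week 18), and 7 of the 32 were well above background. The 4 bright arrays were then all above the range, by 5.57 to 6.51 log2 over the median of -7.03. Most of the low values are readings of background, so these gaps do not measure a ratio of transcript.

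The second Tbx15 probe showed the same arrays high, and the third did not. The second probe read -0.58 on LFC, -0.51 on HFC, -1.54 on HF5, -0.72 on HF75 and -8.65 on HF20 at week 6. Its 4 high values were above all 33 measured arrays of other time points (highest -2.81, LFC week 3). The third probe read -4.86, -5.78, -7.71, -5.24 and -7.09 on the same arrays in that order, all inside the range of its 33 other values (-8.56 to -3.68). The pattern of Tbx15 thus rests on 2 of its 3 probes.

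Tcf21 showed the opposite picture on the same 4 arrays. Its log2 signal at week 6 was -3.70 on LFC, -5.10 on HFC, -5.95 on HF5, -8.09 on HF75 and -1.36 on HF20. The HF5 and HF75 values were not well above background. All 4 low values lay below the 33 measured arrays of other time points, which ran from -3.07 (HF75 week 15) over a median of -0.87 to 1.07 (HF5 week 12). Tcf21 was well above background on all 33 of these, and the HF20 array of week 6 lay among them.

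**Figure D1:**
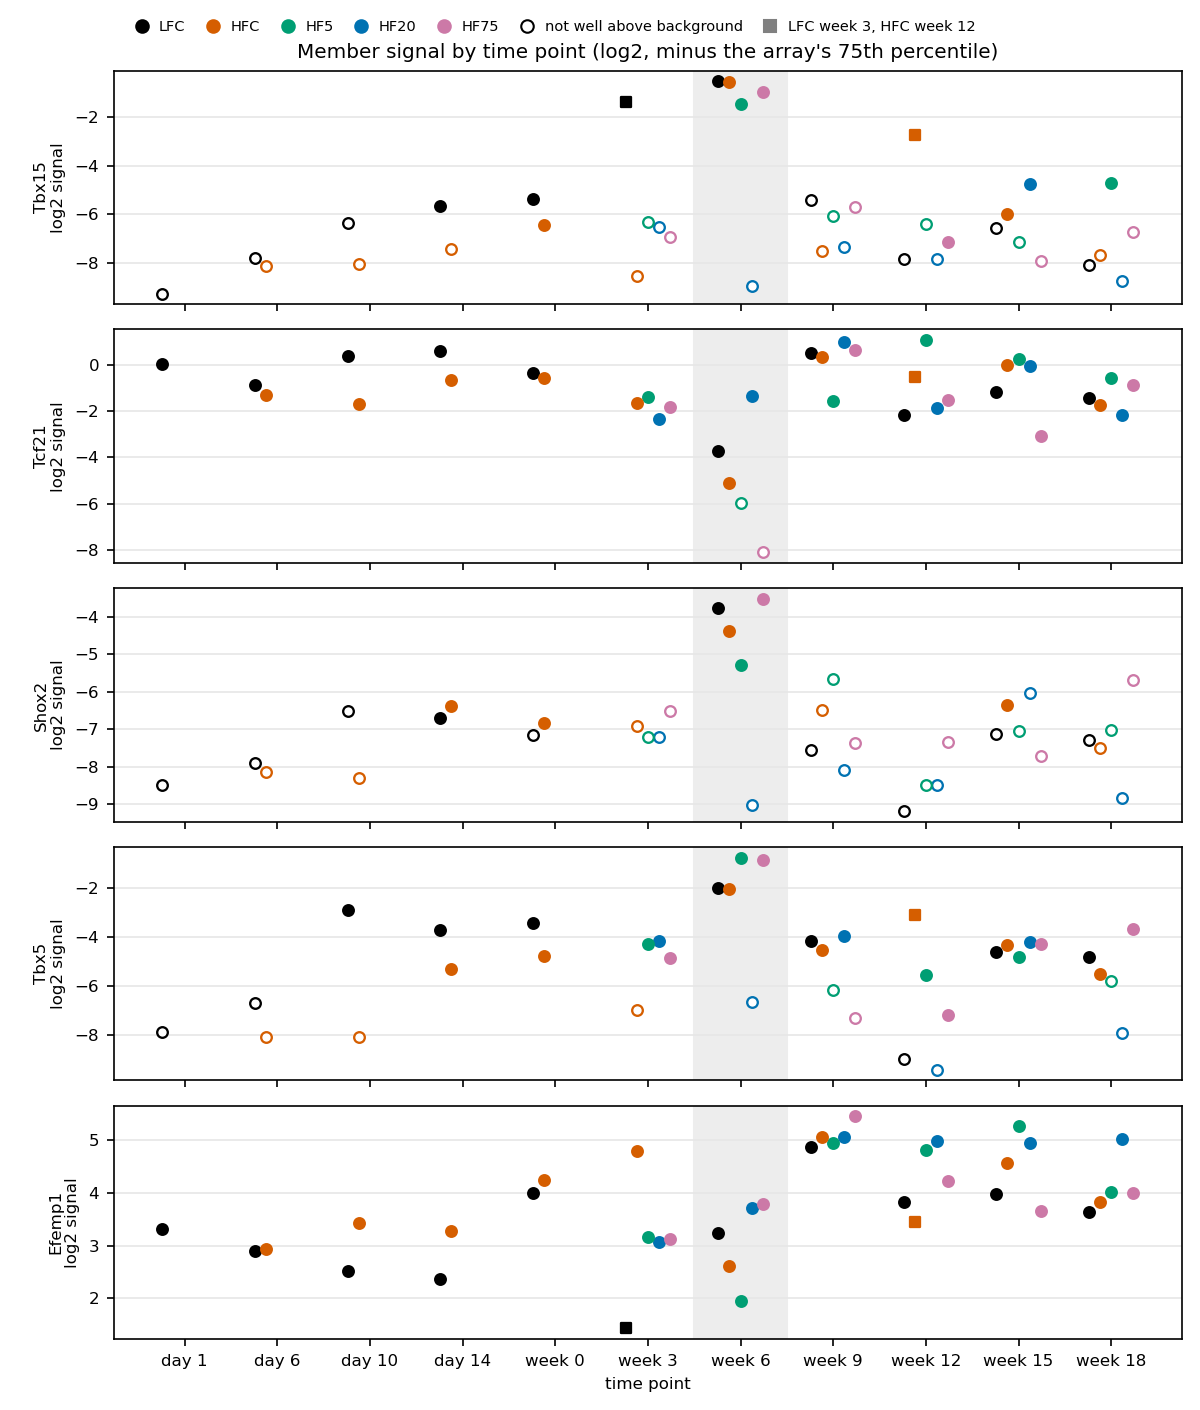
Log2 signal minus the 75th percentile of the array (vertical axis, 1 scale per gene) of Tbx15, Tcf21, Shox2, Tbx5 and Efemp1 at each time point, with 1 point per array coloured by diet. Open circles are not well above background, squares are LFC week 3 and HFC week 12, and week 6 is shaded. At week 6 the LFC, HFC, HF5 and HF75 points are high for Tbx15, Shox2 and Tbx5 and low for Tcf21, and the HF20 point is not.

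**Figure D2:**
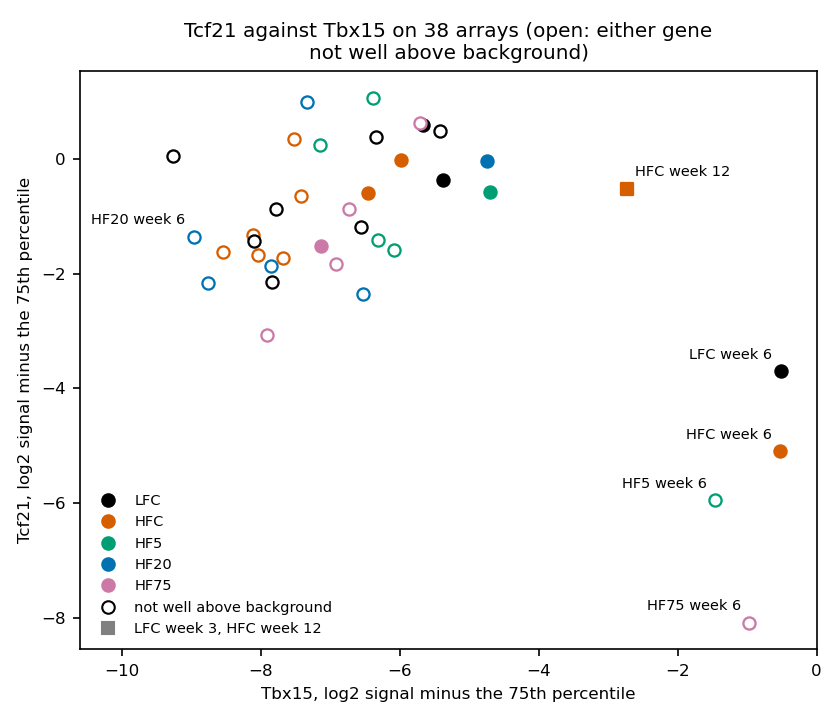
Tcf21 (vertical axis) against Tbx15 (horizontal axis), both as log2 signal minus the 75th percentile, on the 38 arrays where both were measured. The LFC, HFC, HF5 and HF75 arrays of week 6 lie at the lower right, and the HF20 array of week 6 lies at the upper left with the arrays of other time points.

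The other subcutaneous homeobox gene that was measured moved with Tbx15 on these arrays. Shox2, which patterns the limb and the heart pacemaker, read -3.77 on LFC, -4.39 on HFC, -5.29 on HF5 and -3.52 on HF75 at week 6, all well above background. On HF20 it read -9.02, not well above background. The other 32 measured arrays ran from -9.18 to -5.67 with a median of -7.20, and 4 of them were well above background. The 4 high values therefore lay above that range, but the HF5 value only by a small step over HF5 week 9 (-5.67). The removed outlier spots of Shox2 read 0.18 on LFC week 3 and -1.01 on HFC week 12, above all 4.

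En1, a homeobox gene of the limb and hindbrain, was not well above background on any of 38 arrays, week 6 included. The exception was the LFC week 3 array (-2.84). No level is therefore read from the En1 values, and no difference was tested for it.

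Tbx5, the T-box factor of the forelimb and heart, was also high on the 4 arrays. Its brightest probe read -2.00 on LFC, -2.02 on HFC, -0.75 on HF5 and -0.87 on HF75, and -6.63 on HF20, which was not well above background. The 33 measured arrays of other time points ran from -9.41 to -2.91 (LFC day 10) with a median of -4.81, and 22 of them were well above background. In contrast to Tbx15, a signal of Tbx5 was thus present on most arrays of other time points. Its removed outlier spot on LFC week 3 read -0.71, above the 4 values. The second Tbx5 probe read -6.28, -7.81, -7.17, -5.92 and -8.92 in the order LFC, HFC, HF5, HF75 and HF20, none of them well above background, and all lay inside the range of its other arrays.

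Efemp1 and Nr2f1 did not follow the pattern. Efemp1, which encodes the extracellular matrix protein fibulin-3, was well above background on all 39 arrays and read 3.23 on LFC, 2.62 on HFC, 1.95 on HF5, 3.78 on HF75 and 3.71 on HF20 at week 6. All 5 lay within the 34 arrays of other time points (1.43 to 5.45, median 3.98). Without the LFC week 3 array the lowest other value was 2.37 (LFC day 14), and the HF5 value was below it. Nr2f1, the nuclear receptor COUP-TFI, was well above background on 9 arrays and, at week 6, on the HFC array alone (-4.31, above the highest other value of -4.73 on HF75 week 12).

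**Figure D3:**
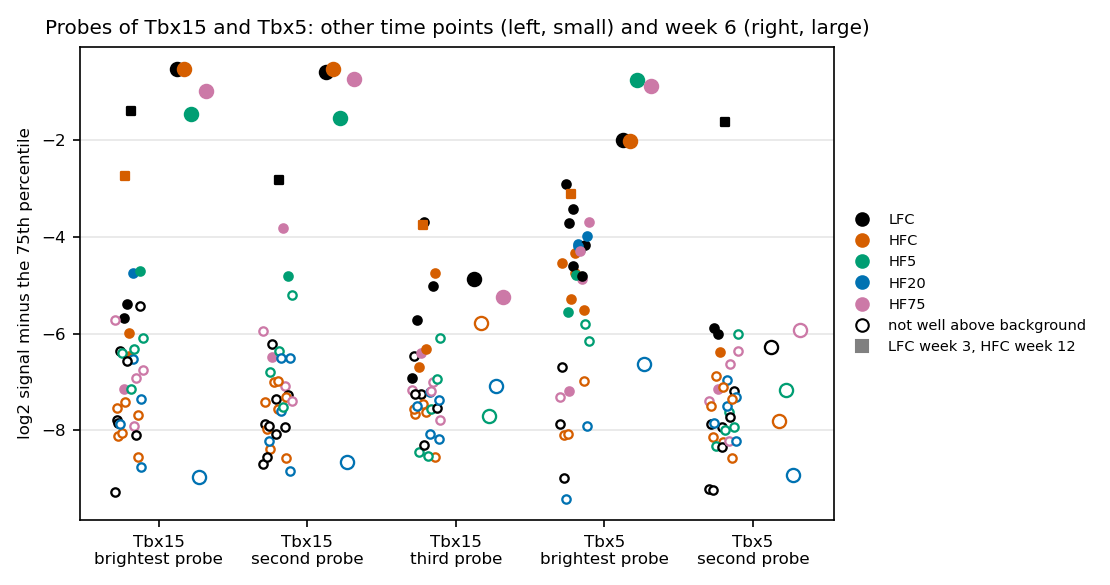
Log2 signal minus the 75th percentile (vertical axis) for the 3 probes of Tbx15 and the 2 of Tbx5, with arrays of other time points as small points on the left and week 6 arrays as large points on the right of each column. Open circles are not well above background and squares are LFC week 3 and HFC week 12. The brightest and second probe of Tbx15 and the brightest of Tbx5 have 4 high week 6 points, and the third probe of Tbx15 and the second of Tbx5 have none above the other arrays.

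Of the 7 genes, 6 met the background mark on at least 4 of 39 arrays. Of these, 3 (Tbx15, Shox2 and Tbx5) had the 4 arrays above the other 33 with LFC week 3 and HFC week 12 left out, and 1 (Tcf21) had them below. Over all 34746 probes that met the same condition, 86 (0.248%) had the 4 arrays above and 47 (0.135%) had them below. With LFC week 3 and HFC week 12 included where they had a value, the members were Shox2 and Tbx5 above and Tcf21 below. Over all probes it was 58 (0.167%) above and 28 (0.0806%) below. Shox2 had no value on either of these arrays, and Tbx5 and Tcf21 had none on LFC week 3. The removed spots of Shox2 (0.18 and -1.01) and Tbx5 (-0.71) were above their 4 week 6 values. Since the members were selected on these arrays, nothing is read from these shares.

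Genes of the same depots were set beside the members at week 6 from lists that were also drawn up with results of these data known. Among 5 further subcutaneous-associated genes, Hoxc10, a homeobox gene of the posterior body, had the 4 arrays above the other 33. It read -3.00 on LFC, -2.74 on HFC, -2.38 on HF5, -2.77 on HF75 and -5.23 on HF20, against -7.97 to -3.16 on the 32 arrays of other time points. The median of the list at week 6 minus other time points was 1.61 log2 (4 genes higher, 1 lower), beside -0.05 for all 34746 probes.

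The visceral-associated list had a median of -1.05, with 9 of 10 genes lower. Wt1, the Wilms tumour factor of the mesothelium, read -4.40 on LFC, -5.38 on HFC, -7.79 on HF5, -7.57 on HF75 and -1.40 on HF20, against -0.81 to 2.36 on the 32 arrays. The HF20 value of Wt1 thus also lay below that range, though nearer to it than the others. Upk3b, a uroplakin of the mesothelium, was not well above background on the 4 arrays and read -0.07 on HF20. Other genes of this list did not separate: Gata6 (0.61 to 1.28 on the 5 week 6 arrays) and Nr2f2 (0.65 to 2.98) overlapped the other time points.

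The mesothelial list had the lowest median of the lists at week 6 (-5.57), with 6 of 6 genes lower and 5 of 6 with the 4 arrays below the other 33. Wt1 and Upk3b are in both this list and the visceral-associated list, so the lists are not separate. They were the only 2 visceral-associated genes with the 4 arrays below the other 33. Its summed level, on a linear scale in units of the 75th percentile, was 1.07 on LFC, 0.790 on HFC, 0.207 on HF5, 0.659 on HF75 and 8.34 on HF20. The 32 arrays of other time points ran from 1.14 to 25.5 with a median of 10.3. The part of the mesothelium in the values of Tcf21 and Tbx15 was not tested. Skeletal muscle markers were higher in 6 of 6 genes (median 1.00), but their summed level at week 6 (2.07 to 9.51) lay within that of the 32 arrays (0.541 to 16.1).

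**Figure D4:**
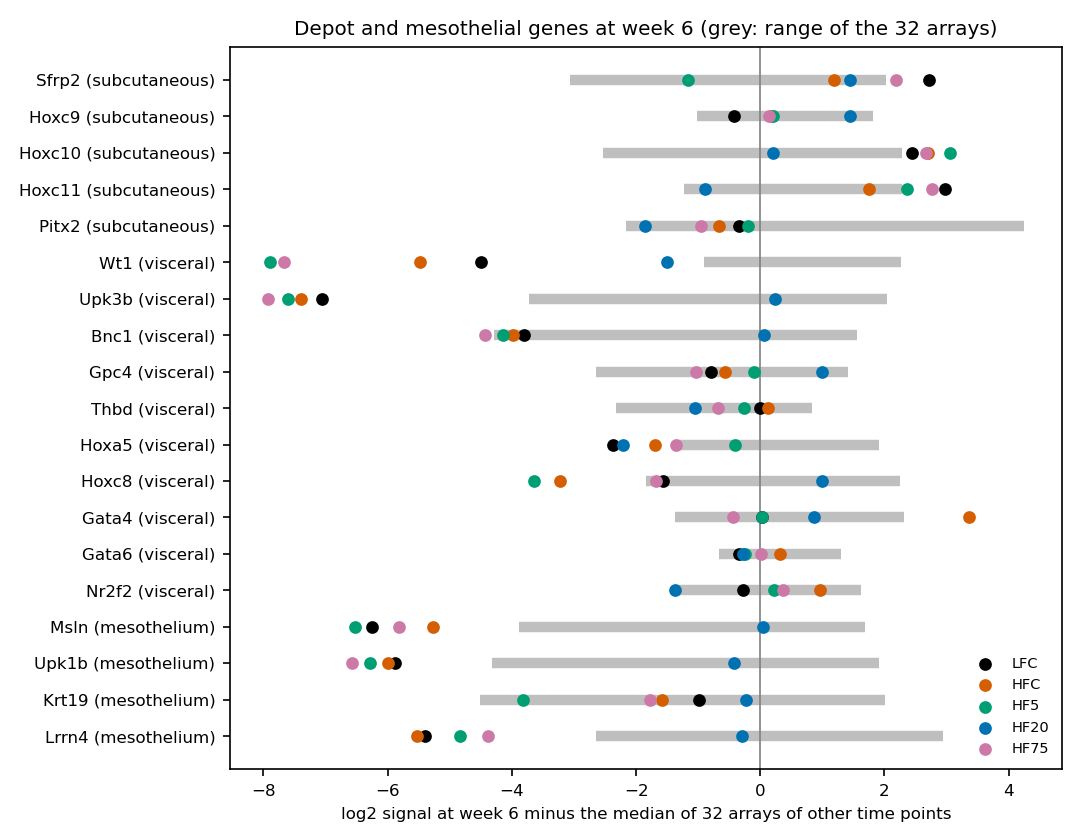
Log2 signal of depot-associated and mesothelial genes on the 5 week 6 arrays, each minus the median of 32 arrays of other time points (horizontal axis), with the range of those 32 arrays in grey. Points are coloured by diet. For Wt1, Upk3b, Msln, Upk1b and Lrrn4 the LFC, HFC, HF5 and HF75 points lie left of the grey bar, and for Hoxc10 they lie right of it. The HF20 point of Wt1 also lies left of its bar.

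The remaining marker lists overlapped in their summed levels between week 6 and other time points. B lymphocyte markers had a summed level of 6.08 on LFC, 4.01 on HFC, 0.656 on HF5, 6.94 on HF75 and 3.44 on HF20, beside 0.325 to 4.54 on the 32 arrays, so that LFC and HF75 exceeded the range. Adipocyte markers (summed level 127 to 311 at week 6, 86.1 to 868 elsewhere), adipose progenitor markers (29.2 to 88.8, 26.4 to 165), macrophage markers (5.30 to 21.2, 4.24 to 24.5) and brown adipocyte markers (1.21 to 8.03, 0.518 to 53.5) lay within it. By gene, the adipocyte list had a median of -1.85 at week 6 minus other time points, with 5 genes lower and 1 higher (Fabp4). Retn on HFC and HF75 (0.63 and 0.08) lay below the lowest of its 32 other values (1.05). On HF75, Adipoq (2.79), Cidec (3.78) and Lep (-4.16) also lay below their lowest other values. No gene of the list had all 4 arrays below the other 33. The part of adipocytes in the member values was not tested. Epididymis markers were 0.0370 on HF75 and 0.0383 on HF5, below the range of 0.0520 to 106, and 5.53 on LFC, 12.3 on HFC and 9.01 on HF20. Skin markers were 0.0863 on HF75, below 0.149 to 3.87, and 0.163 to 0.612 on the others.

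Near relatives of the members were counted in the same way. Over all 34746 probes, 0.248% had the 4 arrays above the other 33 and 0.135% had them below. With lists this short, nothing is read from the counts about the families. Of 15 T-box genes, 9 met the detection condition and none had the 4 arrays outside the other 33 (median 0.01). Of 8 homeobox genes, Alx1, a factor of craniofacial mesenchyme, had the 4 arrays below and not well above background (median of the list -0.32). The basic helix-loop-helix list (7 genes detected, median -0.03), the nuclear receptors (3, median -0.13) and the fibulins (6, median 0.27) had no such gene.

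The LFC, HFC and HF5 arrays of week 6 were scanned on one day and the HF75 and HF20 arrays on another. The latter day thus holds a high and a low value of Tbx15 (-0.97 and, not well above background, -8.97), and the part of the scan day in the week 6 values was not tested. All 5 arrays lay on separate slides, so slide and array cannot be told apart. The title of the HF20 array also carries the mark R2 where the titles of the other 4 carry R, and what the mark stands for is not known here.

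The genes with the profile nearest to Tbx15 over 37 arrays were C1ql3, Mmp3, Prx, C030030A07Rik and Sox2ot. Likeness was measured by the root mean square difference of median-centred log2 values, which was 1.04, 1.14, 1.17, 1.18 and 1.20 for these genes and 2.37 for the median probe. Mmp3, the matrix metalloproteinase stromelysin-1, was well above background on all 39 arrays. It read 4.08 on LFC, 3.47 on HFC, 3.10 on HF5 and 4.64 on HF75 at week 6, and -1.71 on HF20, against -4.26 to 0.29 on the 32 arrays. Prx, which encodes the Schwann cell protein periaxin, read 2.24, 2.73, 0.06 and 1.11 on the same 4 arrays and -4.16 on HF20, against -5.36 to -1.45. C1ql3, C030030A07Rik and Sox2ot were well above background on only 8, 4 and 10 of the 39 arrays. The 37 arrays include the 4 on which Tbx15 and Tcf21 were chosen. On the others, most values of Tbx15 and of these 3 genes are readings of background. Away from the 4 arrays, their likeness to Tbx15 is thus mostly that of background to background.

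Among the genes nearest to Tcf21 were Cadps, Penk, Wt1 and Dio3, at 1.00, 1.18, 1.19 and 1.20 (2.05 for the median probe). Wt1 is also a mesothelial marker. Penk, the enkephalin precursor, read -0.48 on LFC, -1.14 on HFC, -2.66 on HF5, -0.89 on HF75 and 0.27 on HF20, against -3.16 to 2.93 on the 32 arrays, so its week 6 values overlapped the others. When the 4 arrays were left out, the differences from Tcf21 were 0.86, 0.79, 1.03 and 0.89 for these genes over 33 arrays, beside 1.42 for the median probe. For Tbx15 the same step gave 1.01 to 1.20 beside 1.42, over values that were mostly not well above background. Because the 33 arrays are part of the 37 on which these genes were picked, neither step is separate evidence of likeness.

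Outside week 6, the question of the design was whether diet, KAL-1 or time changed the members. The first comparison set HFC against LFC at 9 time points (18 arrays, limma, with a block for each time point). Of the 7 members, Tcf21, Efemp1 and Tbx5 were above background on enough arrays to be tested. None passed an adjusted p of 0.05 and none had an unadjusted p under 0.05, where 0.0% and 3.06% of all 29525 probes did (0 and 903 probes).

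Efemp1 was the member with the largest difference in units of its error. Its log2 signal on LFC outside week 6 had a lowest value of 1.43 (week 3), a median of 3.47 and a highest value of 4.87 (week 9), and on HFC 2.94 (day 6), 3.82 and 5.05 (week 9). The diets overlapped over most of that range. HFC minus LFC was 0.67 (SE 0.34, adjusted p 1 by limma, unadjusted p 0.0747), higher on HFC at 8 of 9 time points. It was 0.34 without week 3 and 0.44 with LFC week 3 and HFC week 12 left out (unadjusted p 0.0267 and adjusted p 0.673 by limma in the latter). Beside it, the mesothelial markers had a median difference of 0.96, with 4 of 6 at an unadjusted p under 0.05 (3.06% of all probes) and 0 at the adjusted threshold, and the median of all probes was 0.03. Macrophage markers had a median of 0.92 (2 of 4 at an unadjusted p under 0.05), adipocyte markers 0.51 (1 of 6) and epididymis markers -2.16 (2 of 6). The part of these cell types in the Efemp1 values was not tested.

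Tcf21 did not separate the diets. It had a lowest value of -2.15 (week 12), a median of -0.36 and a highest value of 0.59 (day 14) on LFC over 9 arrays, and -1.73 (week 18), -0.64 and 0.34 (week 9) on HFC over 9. HFC minus LFC was -0.20 (SE 0.39, adjusted p 1 by limma), lower at 6 of 8 time points, and it was 0.06 without day 10 and -0.46 with LFC week 3 and HFC week 12 left out. Tbx5 differed by -0.55 (SE 0.92, adjusted p 1 by limma), and by -1.47 with these arrays left out (unadjusted p 0.0287 and adjusted p 0.673 by limma). Tbx15, Shox2, En1 and Nr2f1 were not tested in this comparison because they were well above background on fewer than 9 of 18 arrays. The Tbx15 mean was -6.95 ± 1.77 (SD) over 9 HFC arrays and -6.38 ± 2.18 (SD) over 10 LFC arrays, and 3 arrays of each diet were well above background. Without the arrays that stood apart these means were -7.47 ± 0.86 (SD, n = 8) and -6.93 ± 1.37 (SD, n = 9).

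The KAL-1 doses were each set against HFC at weeks 3, 9, 12, 15 and 18, in 1 limma fit of 25 arrays and 31729 probes. Tbx15, Tcf21, Efemp1 and Tbx5 were tested, and none passed or had an unadjusted p under 0.05 at any dose. Over all probes 0.0% passed at each dose (0 probes), and 3.31% (1049) for HF5, 1.55% (492) for HF20 and 2.24% (712) for HF75 had an unadjusted p under 0.05.

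Tcf21 on HF5 read -1.41, -1.58, 1.07, 0.24 and -0.57 in the order of the weeks. On HF20 it read -2.35, 0.99, -1.87, -0.03 and -2.17, and on HF75 -1.83, 0.62, -1.51, -3.07 and -0.87. The 3 doses overlapped each other and HFC. The differences from HFC were 0.26 for HF5, -0.38 for HF20 and -0.62 for HF75 (SE 0.65 each, adjusted p 0.998, 1 and 0.999 by limma). With LFC week 3 and HFC week 12 left out they were 0.33, -0.31 and -0.55.

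Efemp1 on HF5 read 3.16, 4.94, 4.82, 5.26 and 4.02 in the order of the weeks. On HF20 it read 3.07, 5.05, 4.99, 4.94 and 5.01, and on HF75 3.12, 5.45, 4.23, 3.65 and 4.00. Its week 3 value was the lowest at each dose. The differences from HFC were 0.11, 0.28 and -0.24 (SE 0.42 each, adjusted p 0.998, 1 and 0.999 by limma). With LFC week 3 and HFC week 12 left out they were -0.17, 0.0 and -0.52.

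Tbx15 was well above background on 1 array of each dose outside week 6, with values of -4.71 on HF5 (week 18), -4.75 on HF20 (week 15) and -7.14 on HF75 (week 12). Its differences from HFC were 0.36, -0.55 and -0.39 (SE 1.13 each) and those of Tbx5 were -0.42, -1.04 and -0.57 (SE 1.03 each). The adjusted p of all of these was 0.998 to 1 by limma. For Tbx15 these are differences between values that are mostly background. Without the 2 arrays that stood apart they were 1.44 for HF5 (unadjusted p 0.0666, adjusted p 0.677 by limma), 0.52 for HF20 and 0.69 for HF75. Those of Tbx5 were then 0.58, -0.03 and 0.43.

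**Figure D5:**
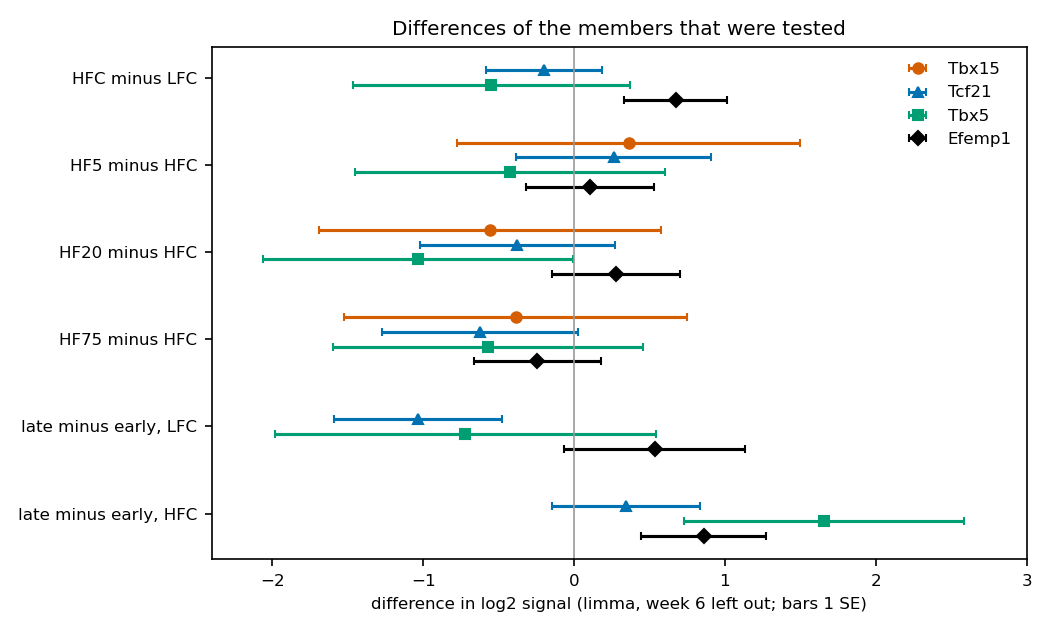
Difference in log2 signal (horizontal axis, bars 1 SE) of the members that were tested in each of 6 comparisons by limma, with week 6 left out. Tcf21, Tbx5 and Efemp1 were tested in all 6 and Tbx15 in the 3 dose comparisons. No member passed the adjusted threshold, and the largest difference was that of Tbx5 in late minus early on HFC (1.66, SE 0.93).

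In the order of the diet means outside week 6, Efemp1 ran from LFC (3.28 ± 1.00, SD, n = 10) over HFC (3.95 ± 0.74, n = 9), HF75 (4.09 ± 0.87, n = 5) and HF5 (4.44 ± 0.85, n = 5) to HF20 (4.61 ± 0.86, n = 5), but the groups differ in their time points. Without the arrays that stood apart LFC was at 3.49 ± 0.80 (n = 9) and HFC at 4.02 ± 0.77 (n = 8). Tcf21 was ordered from HF75 (-1.33 ± 1.35, n = 5) over HF20 (-1.09 ± 1.48, n = 5), HFC (-0.86 ± 0.76, n = 9) and LFC (-0.50 ± 0.97, n = 9) to HF5 (-0.45 ± 1.12, n = 5). Each step between neighbours in both orders was smaller than their SD.

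Time was compared within the LFC and within the HFC diet, with weeks 3, 9, 12, 15 and 18 (late) against days 1 to 14 and week 0 (early). The arrays of days 1 to 14 were scanned after all late arrays and those of week 0 between them, so for days 1 to 14 age and scan period cannot be told apart. Within LFC, 107 of 30298 probes passed (0.353%), and 1868 (6.17%) had an unadjusted p under 0.05. Within HFC, 0 of 30311 passed (0.0%), and 4035 (13.3%) had an unadjusted p under 0.05. Leaving out 1 array at a time gave 0 to 197 probes within LFC (197 without week 3, and 0 without day 1, day 6 or week 0, 9, 12 or 15) and 0 to 201 within HFC (201 without week 0). None of the 3 members tested in each (Tcf21, Efemp1 and Tbx5) was among the probes that passed or had an unadjusted p under 0.05 in the full comparisons.

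Tcf21 averaged -0.04 ± 0.59 (SD, n = 5) on early and -1.07 ± 1.12 (SD, n = 4) on late LFC arrays, a difference of -1.03 (SE 0.56, adjusted p 0.896 by limma) that did not pass. On HFC the difference was 0.34 (SE 0.49, adjusted p 0.739 by limma), and 0.30 without week 12. Efemp1 differed by 0.54 (SE 0.60, adjusted p 0.955 by limma) on LFC and by 0.86 (SE 0.41, adjusted p 0.393 by limma, unadjusted p 0.0646) on HFC, where 4 of 5 late arrays were above the early mean. It was 1.06 on LFC without week 3 (unadjusted p 0.0277, adjusted p 0.540 by limma) and 1.08 on HFC without week 12 (unadjusted p 0.0215, adjusted p 0.437 by limma). Tbx5 differed by -0.72 (SE 1.26, adjusted p 0.969 by limma) on LFC and by 1.66 (SE 0.93, adjusted p 0.432 by limma) on HFC, where it was 1.21 without week 12.

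Whether the change with time differed between HFC and LFC was tested directly over 19 arrays. None of the 6 members in that fit passed, and 0 of 33624 probes (0.0%) did. Late minus early on HFC less that on LFC was 1.38 for Tcf21 (SE 0.77, adjusted p 1 by limma) and 2.38 for Tbx5 (SE 1.69, adjusted p 1 by limma), where the 2 diets had opposite signs for both genes. Without the arrays that stood apart these values were 1.33 and 1.93, and 0 of 32720 probes passed.

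Efemp1 had its highest levels at week 9, when the 5 diets read 4.87 to 5.45, all above the 5 arrays of week 6 (1.95 to 3.78). At weeks 12, 15 and 18 the diets read 3.44 to 4.99, 3.65 to 5.26 and 3.64 to 5.01. At days 1 to 14 the 7 arrays read 2.37 to 3.42, at week 0 the 2 arrays read 3.99 and 4.25, and at week 3 the 5 diets spread from 1.43 to 4.8. This order of time points was seen in the data and was not tested. All week 9 arrays were scanned on the same day, which held no other time point, so week 9 and its scan day cannot be told apart.

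The related lists gave no called gene outside week 6. In HFC against LFC, 0 of 3 tested subcutaneous-associated genes (median 0.46), 0 of 10 visceral-associated (0.33) and 0 of 8 T-box genes (0.05) passed, beside a median of 0.03 for all probes. Over all 29525 probes of that comparison 0 passed (0.0%), so no list could hold a called gene. Of the visceral-associated genes 3 had an unadjusted p under 0.05, and of the subcutaneous-associated and T-box genes 0, where 3.06% of all probes did. In the late against early comparison within LFC, 107 of 30298 probes passed (0.353%), and 0 of the genes of the 7 related lists were among them. At that share nothing is read from this count about the lists.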

How the data were processed

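Total RNA of epididymal fat was labelled with Cy3 and hybridised to 39 one-colour Agilent arrays (45220 spots, 43803 of them no controls). Per the file headers, the intensity values were background-subtracted and detrended within each array by Feature Extraction 10.5.1.1 (the submitters' processing notes name version 9.1) and the array annotation uses mouse build mm9. In the matrix deposited by the authors each value is a log2 difference between an array and the LFC array of that time point, made in GeneSpring GX, and this matrix served only as an alternative for comparisons between diets.

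The processed signal was log2 transformed, the 75th percentile of the array was subtracted, outlier spots were set to missing and spots of a probe were averaged. No value of a member was saturated. Groups were taken from the labels. Differences were tested two-sided with limma 3.58.1 in R 4.3.3 (with statmod 1.5.0, and data.table version 1.17.8) with Benjamini-Hochberg adjustment at 0.05, over probes well above background on at least as many arrays as the smaller group had (9, 5, 5 and 4 arrays for diet, dose, LFC time and HFC time). Time point was a block between diets. Week 6 was left out of all tests because the members were chosen on it. The fit was tested on simulated data. Summaries and plots were made with Python 3.11.15, numpy 2.4.6, pandas 2.3.3 and matplotlib 3.10.9. The number of arrays limits the precision, and intensities give no read depth.

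The members and lists were chosen with earlier results of these data known. Named genes were the members, at most 4 genes of each related list and the 5 nearest profiles of Tbx15 and of Tcf21 among probes well above background on at least 4 arrays, of which 1 is not reported here. Each gene was read from its brightest probe over all arrays. Accessions were matched to RefSeq symbols of GRCm38.p6, which were used for names only. The study's methods name a t-test between replicates of a time point. These arrays hold no such replicates, so the methods' t-test was run over time points. Alternatives were normexp (offset 50), quantile and median scaling, outlier spots kept, other filters, week 6 added, arrays or time points left out, other blocks and the deposited table.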

Additional observations from a re-analysis of the deposited data

Results flagged for a closer look

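Within each diet, the highest or lowest array was far from the others for 6 of 31 combinations of a member and a diet that had 4 to 10 measured arrays. Chance alone puts about 1 in 20 such groups on this list, and 5 of the 6 come from the week 6 arrays on which the genes were chosen, so they are no separate evidence. Tbx15 on the HF75 array of week 6 was -0.97, where the next highest HF75 array was -5.71. Shox2 was -3.77 on LFC at week 6 (next -6.50) and -4.39 on HFC at week 6 (next -6.36). Tcf21 on HFC at week 6 was -5.10, where the next lowest HFC array was -1.73. Tbx5 on HF5 at week 6 was -0.75 (next -4.27). En1 on HF5 at week 9 was -6.15 (next -7.55), and neither value was well above background.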

How the results depend on the processing

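No member passed the adjusted threshold in any comparison under any setting that was run, and the smallest adjusted p of a member was 0.169. Of 364 member values under alternatives, 36 changed sign, all in differences that did not pass, and the cause was not tested. For HF5 against HFC, Efemp1 was -0.292 with normexp, -0.166 with quantile scaling, -0.023 with week 6 added and -0.171 with LFC week 3 and HFC week 12 left out, Tbx5 was 0.052 with normexp and 0.58 with the latter arrays left out, and Tbx15 was -0.019 with normexp. For HF20, Tbx15 was 0.554 with quantile scaling and 0.52 with these arrays left out, and Tcf21 was 0.042 with median scaling and 0.309 with week 6 added. For HF75, Tbx15 was 0.374, 0.067 and 0.687 with quantile scaling, median scaling and these arrays left out, Tbx5 was 0.434 in the last case, and Efemp1 was 0.005 with normexp and 0.211 with median scaling. Over time, Tbx5 within LFC was 0.436 with normexp, 0.267 with outlier spots kept and 0.008 with week 6 added, and Tcf21 within HFC was -0.387 with week 6 added. Scaling also moved the median of all probes, at most to 0.39 for HF75 against HFC with median scaling (-0.01 with the 75th percentile).

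Leaving out 1 time point at a time gave these ranges where the sign changed. HFC minus LFC ran from -0.464 to 0.064 for Tcf21 and from -1.467 to 0.111 for Tbx5. HF5 minus HFC ran from -0.29 to 1.368 for Tbx15, -0.068 to 0.809 for Tcf21, -0.211 to 0.544 for Efemp1 and -1.204 to 0.081 for Tbx5. HF20 minus HFC ran from -1.198 to 0.589 for Tbx15, -0.039 to 0.778 for Efemp1 and -2.0 to 0.28 for Tbx5. HF75 minus HFC ran from -0.94 to 0.617 for Tbx15, -0.501 to 0.116 for Efemp1 and -1.24 to 0.306 for Tbx5. Late minus early on LFC ran from -1.458 to 0.395 for Tbx5.

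The number of probes passing stayed 0 for HFC against LFC, HF5 and HF75, and was 0 to 1 for HF20 (1 without week 3). For late against early within LFC the 107 probes (59 higher) became 0 with normexp, 32 with quantile scaling (18 higher), 19 with median scaling (16 higher), 43 with outlier spots kept (40 higher), 1 when a probe had to be above background on every array (0 higher), 22 with no filter (19 higher), 149 with week 6 added (82 higher), 197 without LFC week 3 (77 higher), 2 with the methods' t-test (2021 before adjustment), and 0 to 197 without 1 time point (0 without day 1, day 6 or week 0, 9, 12 or 15). Within HFC the 0 became 41 with median scaling (2 higher) and 0 to 201 without 1 time point (201 without week 0). Scan day and slide could not be fitted as a block within a diet, since each array had its own. Most values of Tbx15 and Shox2 outside week 6 were not well above background, so signal limits what these comparisons can show for them.

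The number of week 6 arrays outside the range of other time points was 3 for Tbx15, 4 for Shox2, Tbx5 and Tcf21, 1 for Nr2f1 and 0 for Efemp1 and En1. With normexp it was 0 for Tbx15, Shox2, Tbx5 and Nr2f1, and still 4 for Tcf21. The 5th percentile of normexp values ran from -4.62 to -0.09 between arrays, and the cause of the lower counts was not tested. With outlier spots kept it was 0 for Shox2 and Tbx5, because their outlier spots on LFC week 3 read 0.18 and -0.71. It was 0 with the third probe of Tbx15 and with the second of Tbx5. For Efemp1 it was 1 with quantile scaling and 1 with LFC week 3 and HFC week 12 left out, the latter a setting chosen after seeing the data.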
